A study of Mus musculus with 19 samples.

Results

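Layer 5 of the primary somatosensory cortex (S1) of the mouse was compared with the layers on either side of it. The comparison rests on 5 of the 7 S1 libraries, and on 5 of the 19 samples of the series. Sample C was cut mostly from upper layer 5 and sample D mostly from lower layer 5, and these formed the layer 5 group (n = 2). Samples B1 and B2, cut mostly from layer 4, and sample E, cut mostly from layer 6, formed the flanking group (n = 3). All mice were untreated male C57BL/6 animals aged 56 days, and polyadenylated RNA came from the same 8 mice in every segment. It was pooled over all 8 in each of C, D and E, and by litter, 4 mice each, in B1 and B2, so the 5 libraries share animals and C and D are not separate sets of mice. The segments were cut by hand, so each library holds every cell type of its segment and some tissue of the neighboring layers. B1 and B2 are the only libraries from separate litters, and C and D differ in depth within the layer as well as being 2 libraries.

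Layer 5 holds the largest pyramidal neurons of the cortex. One class of them sends long, thick axons out of the cortex to the brainstem and spinal cord, another class connects the hemispheres, and the near-projecting class stays local. Layer 4 is the main target of thalamic input in sensory cortex, and many layer 6 neurons project back to the thalamus.

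Expression was measured as FPKM, fragments counted for a gene model, scaled to its length and to all mapped fragments of the library, which allows levels to be compared between genes. Each FPKM has the lower and upper bound of the 95% interval that cufflinks gave it. Genes were counted as above when the intervals of both C and D lay over those of B1, B2 and E, and as below when both lay under all 3. These intervals hold the error of the estimate within a library and not the spread between mice. Of 24130 genes listed, 10102 were tested, with a widest interval of at most 50% of the mean FPKM over the 7 libraries and a mean of at least 1 FPKM over the 5.

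The libraries hold an estimated 41.6 M to 74.9 M fragments. Genes of the mitochondrial genome took 7.76% of the summed FPKM in B1 and 18.2% in B2, against 9.78% in C, 9.58% in D and 7.67% in E. Between C and D the median absolute log2 ratio was 0.110, and between the layer 4 libraries it was 0.295, and the rank correlation across genes was 0.990 and 0.956 in these pairs.

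By the count of intervals, 386 of the 10102 genes (3.82%) lay above in layer 5 and 119 (1.18%) lay below. By FPKM alone, without the intervals, 1295 lay above (12.8%) and 426 below (4.22%). The genes above were 76.4% of the 505 genes that were apart. This excess depended on the scale of the libraries, since the median log2 difference between layer 5 and the flanking group over all genes tested was 0.11 and not 0. After scaling by the median of ratios, which brought that median to -0.00 (-0.0031), 257 genes lay above and 195 below (56.9% above). After rescaling to the summed FPKM of nuclear genes the numbers were 311 and 159 (66.2%), and after removal of a trend with GC content in each library they were 258 and 213 (54.8%). Under all 4 of these scales 164 genes stayed above (42.5% of the 386) and 85 stayed below (71.4% of the 119). Such genes are described here as holding on every scale. The 6 genes above and 6 below without a GC value were not run with GC content removed and are not counted among them. Without E, which leaves layer 4 as the only neighbor, 26% of all genes lay above and 4.62% below, and among the lists the counts came to 10 of 14 layer 5 projection neuron genes and 17 of 24 neurofilament and axonal transport genes above.

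The limma moderated test of C and D against B1, B2 and E left 3 residual degrees of freedom. At an adjusted p of 0.05 it called 1 gene higher (0.0099%) and 2 lower (0.0198%), and all 3 are genes with no entry in some libraries. Of the 10047 genes listed in all 5 libraries limma called 0, with 243 at an unadjusted p under 0.05 and a smallest adjusted p of 0.788. An exact permutation test of 2 libraries against 3 cannot go below a 2-sided p of 0.2. The values below therefore describe these 5 libraries, and none of the genes listed in all 5 passed the test. The spread that limma used includes the layer difference of E from B1 and B2 and the depth difference of C from D.

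The labels were checked with marker genes of each layer. These markers, like all gene lists used here, were chosen with earlier results of these data known. The shares of a list above or below are therefore descriptions and not independent support. All 8 tested markers of layer 4 neurons had a lower mean in layer 5 than in layer 4. Rorb, a nuclear receptor of layer 4 neurons, had 12.6 FPKM in C and 4.37 in D, between 17.8 and 22.1 in B1 and B2 and 2.23 in E. All 9 tested markers of layer 6 neurons were lower in layer 5 than in E. Tle4, a corepressor of corticothalamic neurons, had 35.0 FPKM in E, 16.8 in D and 8.13 in C, against 3.96 and 5.64 in B1 and B2. Both lists were graded through layer 5, with C nearer to layer 4 and D nearer to layer 6. No marker of either list lay above or below all flanking libraries.

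**Figure D1:**
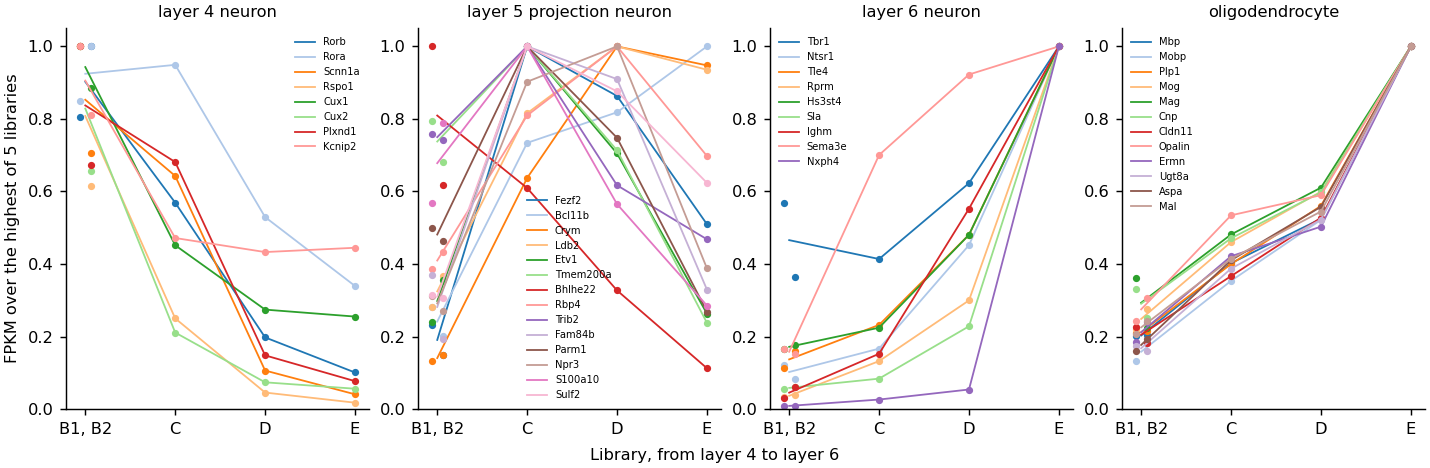
FPKM of tested marker genes of layer 4 neurons, layer 5 projection neurons, layer 6 neurons and oligodendrocytes in B1, B2, C, D and E (points), each divided by the highest of the 5 libraries, with lines through the mean of B1 and B2, C, D and E. Markers of layers 4 and 6 and of oligodendrocytes run up or down through C and D, while most of the 14 layer 5 markers are highest in C or D.

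Sequences upstream of some of the genes above are shown here so that the starts of a layer 5 neuron gene can be set beside those of metabolic genes that lay above with it. They are the 250 bases before the annotated start, 5′ to 3′ on the strand of the gene, from RefSeq on GRCm38.p6. Capitals mark TGACGTCA, the palindromic cAMP response element, and CATCTG or its reverse complement CAGATG, an E-box of the kind that proneural factors bind. The first 3 belong to Fezf2 (chr14:12345866-12346115, minus strand), Vat1l (chr8:114205390-114205639, plus strand) and Vwc2l (chr1:70725465-70725714, plus strand), which are expressed in layer 5 pyramidal neurons.
Fezf2: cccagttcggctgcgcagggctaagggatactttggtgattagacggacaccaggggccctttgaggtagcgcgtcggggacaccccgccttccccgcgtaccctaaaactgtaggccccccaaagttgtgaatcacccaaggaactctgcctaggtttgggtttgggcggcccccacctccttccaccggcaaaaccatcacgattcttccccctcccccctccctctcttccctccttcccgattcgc
Vat1l: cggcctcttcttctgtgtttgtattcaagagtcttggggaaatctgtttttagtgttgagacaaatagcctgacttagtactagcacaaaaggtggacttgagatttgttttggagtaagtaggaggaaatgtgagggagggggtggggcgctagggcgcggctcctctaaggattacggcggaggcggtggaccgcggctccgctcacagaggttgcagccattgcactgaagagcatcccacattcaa
Vwc2l: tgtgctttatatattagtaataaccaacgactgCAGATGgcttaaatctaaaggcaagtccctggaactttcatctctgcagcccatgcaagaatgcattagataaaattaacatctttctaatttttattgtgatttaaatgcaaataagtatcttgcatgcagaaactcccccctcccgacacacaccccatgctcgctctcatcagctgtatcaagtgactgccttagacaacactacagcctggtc

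The other 4 belong to the citrate cycle genes Cs (chr10:128337477-128337726, plus strand), Dlst (chr12:85110583-85110832, plus strand) and Ogdhl (chr14:32321769-32322018, plus strand) and to Uqcrfs1 of the respiratory chain (chr13:30545317-30545566, minus strand). All 4 hold a marked motif and do not stand for the metabolic genes above. Sucla2, Suclg1, Mdh1, Idh3b, Sdha, Sdhb, Sdhd, Fh1 and Pdha1 also lay above, and their windows hold neither motif.
Cs: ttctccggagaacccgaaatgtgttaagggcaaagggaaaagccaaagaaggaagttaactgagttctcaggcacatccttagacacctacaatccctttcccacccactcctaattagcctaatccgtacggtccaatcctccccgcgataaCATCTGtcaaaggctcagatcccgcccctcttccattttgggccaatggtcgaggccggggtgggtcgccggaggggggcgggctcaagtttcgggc
Dlst: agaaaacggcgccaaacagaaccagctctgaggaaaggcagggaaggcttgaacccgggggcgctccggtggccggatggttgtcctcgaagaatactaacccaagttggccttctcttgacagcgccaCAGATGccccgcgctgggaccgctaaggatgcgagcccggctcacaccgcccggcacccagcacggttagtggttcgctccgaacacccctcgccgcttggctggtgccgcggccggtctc
Ogdhl: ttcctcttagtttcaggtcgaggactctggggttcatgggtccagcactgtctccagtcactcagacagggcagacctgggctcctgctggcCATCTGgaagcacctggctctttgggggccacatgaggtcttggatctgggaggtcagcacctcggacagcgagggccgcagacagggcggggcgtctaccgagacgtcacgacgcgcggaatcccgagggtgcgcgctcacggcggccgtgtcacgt
Uqcrfs1: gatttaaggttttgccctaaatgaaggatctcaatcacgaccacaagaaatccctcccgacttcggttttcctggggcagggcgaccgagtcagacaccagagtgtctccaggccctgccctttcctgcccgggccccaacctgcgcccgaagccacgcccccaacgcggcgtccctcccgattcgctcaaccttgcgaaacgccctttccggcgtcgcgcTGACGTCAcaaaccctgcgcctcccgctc

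The table of promoters matched 290 of the 386 genes above, with 368 windows, and 75 of the 119 genes below, with 100 windows. TGACGTCA stood in 4.35% of the windows of genes above, in 0% of those of genes below, in 2.6% of those of all genes tested and in 1.55% of all 32851 windows. CATCTG, read on both strands, stood in 9.51%, 7%, 9.79% and 14.4% of the same sets. In the citrate cycle list 6 of 24 matched genes had a window with CATCTG and 2 had one with TGACGTCA. Those with TGACGTCA were Mdh2 and Ogdh, and neither is among the genes named as above. Those with CATCTG were Aco1, Cs, Dlst, Idh1, Ogdh and Ogdhl, of which Cs, Dlst and Ogdhl are named as above. Of the 7292 matched genes tested, 846 had a window with CATCTG and 228 had one with TGACGTCA. AAGGTCA, a half-site of estrogen-related receptors, stood in 2.45% of the windows of genes above, 8% of those of genes below and 2.55% of those of all genes tested. It stood in 0% of the windows of the citrate cycle list and 7.04% of those of the nuclear respiratory chain list. These are matches of letters and were not tested as binding sites.

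Of the 20 listed markers of layer 5 projection neurons, 14 were tested. All 14 had a positive log2 difference, as 6975 of all 10102 genes did, with a median of 1.06 against 0.11 over all genes tested. The flanking group holds B1 and B2 of layer 4 but only E of layer 6, so these differences weigh layer 4 more. The layer 5 mean exceeded layer 4 in 13 of the 14 and layer 6 in 11. Over all 10102 genes it did so in 7075 and 3948. By intervals 6 lay above (42.9%, against 3.82% of all genes), namely Fezf2, Etv1, Fam84b, Parm1, Npr3 and Sulf2. None lay below, and the 6 held on every scale. With the median of ratios 13 of the 14 differences stayed positive, and the list median was 0.94.
Fezf2 (chromosome 14, 13174616 to 13178342 of mm9) encodes the transcription factor that specifies subcortical projection neurons. It had 26.0 FPKM in C and 22.5 in D, against 6.06 in B1, 3.86 in B2 and 13.3 in E. Layer 5 exceeded layer 4 by 4.88-fold and layer 6 by 1.83-fold, and the log2 difference from the flanking group was 1.82 ± 0.49 (SE, limma adjusted p = 0.987).
Etv1 (chromosome 12, 39506897 to 39594790), an ETS transcription factor of layer 5 pyramidal neurons, was as low in layer 6 as in layer 4. Its FPKM was 7.60 in C and 5.36 in D, and 1.83 in B1, 2.70 in B2 and 2.002 in E. The log2 difference was 1.53 ± 0.27 (limma adjusted p = 0.678).
Npr3, the clearance receptor of natriuretic peptides, had 4.00 FPKM in C and 4.43 in D, with 1.38 in B1, 1.20 in B2 and 1.72 in E. Fam84b had 2.49 FPKM in C and 2.27 in D, with at most 0.920 in the flanking libraries. Parm1, a membrane mucin, had 28.8 FPKM in C and 21.5 in D and was higher in layer 4 (14.4 in B1 and 13.4 in B2) than in E (7.75). Sulf2, an enzyme that removes sulfate groups from heparan sulfate, had the opposite order, with 50.7 FPKM in C, 44.5 in D and 31.6 in E, and 15.9 in B1 and 15.5 in B2. In layer 6b (sample F) Sulf2 reached 50.6 FPKM, level with C, so high Sulf2 was not particular to layer 5.

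The other 8 tested markers of this list were not above all 3 flanking libraries by their intervals. Bcl11b, the transcription factor also known as Ctip2, had 13.01 FPKM in C and 14.5 in D, but 17.7 in E and 19.5 in F, and 4.97 and 3.59 in B1 and B2. Crym and Ldb2 were also low in layer 4 but had E between C and D, with Crym at 21.9 in C, 34.3 in D and 32.5 in E. Bhlhe22 was highest in layer 4, with 18.4 FPKM in B1 and 11.4 in B2, and had 11.2 in C and 6.02 in D.

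The near-projecting class was represented by Vwc2l and Lypd1, the 2 of its 6 listed markers that were tested, and both lay above on every scale. Vwc2l (chromosome 1, 70772289 to 70931971) had 2.30 FPKM in C and 2.06 in D, against 0.370 in B1, 0.365 in B2 and 0.824 in E. Its log2 difference was 1.95 ± 0.40 (limma adjusted p = 0.987). Lypd1 was higher in lower than in upper layer 5, with 10.8 FPKM in C and 16.9 in D, against 5.33 in B1, 5.98 in B2 and 7.89 in E. Lypd1 also had 15.1 FPKM in A and 14.3 in F. Among the markers with intervals too wide to be tested, Tshz2 had 14.5 FPKM in C and 13.8 in D, and 4.55, 6.39 and 4.89 in B1, B2 and E.

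**Figure D2:**
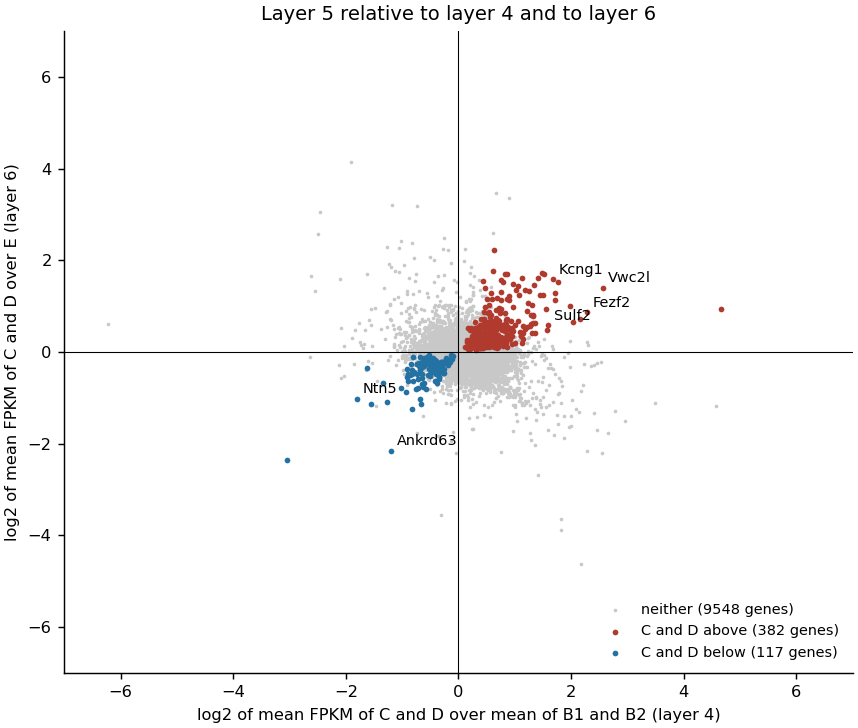
Each point is 1 of the 10047 genes listed in all 5 libraries, placed by the log2 ratio of the layer 5 mean (C and D) to the layer 4 mean (B1 and B2) on the x axis and to layer 6 (E) on the y axis. Red points are the 382 genes above and blue points the 117 below by their intervals, and Fezf2 and Vwc2l lie farther from 0 against layer 4 than against layer 6.

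Over the 382 genes above that were listed in all 5 libraries, the lower of C and D exceeded the highest flanking library by a median factor of 1.17, and 36 genes reached 1.5 and 13 reached 2. Against layer 4 the median ratio of the layer 5 mean was 1.44 and against layer 6 it was 1.251. Over all genes tested these medians were 1.14 and 0.957. Layer 6 was the nearer neighbor for 291 of the 382 genes and layer 4 for 91, counted on the deposited scale only. For the 117 genes below, the higher of C and D was a median of 0.862 of the lowest flanking library, and none was at or under 0.5. Msi2, an RNA-binding protein, was the last gene inside the limit, with its lower bound of 12.9146 FPKM in D just over its upper bound of 12.9132 in B2. For 1700037H04Rik, the first outside it, the lower bound in D was 22.3571 and the upper bound in E 22.3797.

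Kcng1 (chromosome 2, 168085617 to 168106632), a silent subunit that modifies Kv2 potassium channels, had the widest gap of the genes listed in all 5 libraries. Its FPKM was 8.68 in C (95% interval 8.26 to 9.11) and 7.28 in D (6.92 to 7.65), and 2.503 in B1, 2.49 in B2 and 2.66 in E. The flanking libraries were alike and layer 5 was about 3-fold over each of them, 3.20-fold over layer 4 and 3.00-fold over layer 6. The log2 difference was 1.60 ± 0.19 (limma adjusted p = 0.291).
Several others of the 15 with the widest gaps had equally low values on both sides. Rhbdl3, an intramembrane protease of the rhomboid family, had 3.28 FPKM in C and 3.26 in D, and 1.35 in B1, 1.11 in B2 and 1.06 in E. Vat1l, which marks large corticofugal neurons, had 15.2 FPKM in C and 12.6 in D, and between 5.52 and 6.04 in the flanking libraries. Chst8, a sulfotransferase, and Trpc4, a cation channel, had a layer 5 mean 2.55-fold and 2.35-fold over layer 4 and 2.76-fold and 2.10-fold over layer 6.
Tox was higher in E than in layer 4, while Bcl6 and Sv2c were not apart between E and B1. Tox, a DNA-binding protein of the HMG-box family, had 12.8 FPKM in C and 11.4 in D, with 3.61 in B1, 3.76 in B2 and 5.49 in E. Bcl6, a transcriptional repressor, had 10.8 FPKM in C and 8.43 in D, with 3.88 in B1, 2.93 in B2 and 4.04 in E. Sv2c, a protein of synaptic vesicles, had 6.35 FPKM in C and 5.30 in D, with at most 2.54 in the flanking libraries, but 5.09 in F. The pseudogene Gm5454 had 24.9 FPKM in C and 17.1 in D and at most 7.79 in the flanking libraries. Reads of a pseudogene can belong to a near-identical copy, so this value is uncertain. All 15 of the genes with the widest gaps above, Prkag1 of the next paragraph included, held on every scale. They were ranked by this same gap, and scaling by the median of ratios changed FPKM by factors of 0.913 to 1.10. A missing entry stays 0 on any scale. Holding was therefore nearly fixed in advance for these genes.

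**Figure D3:**
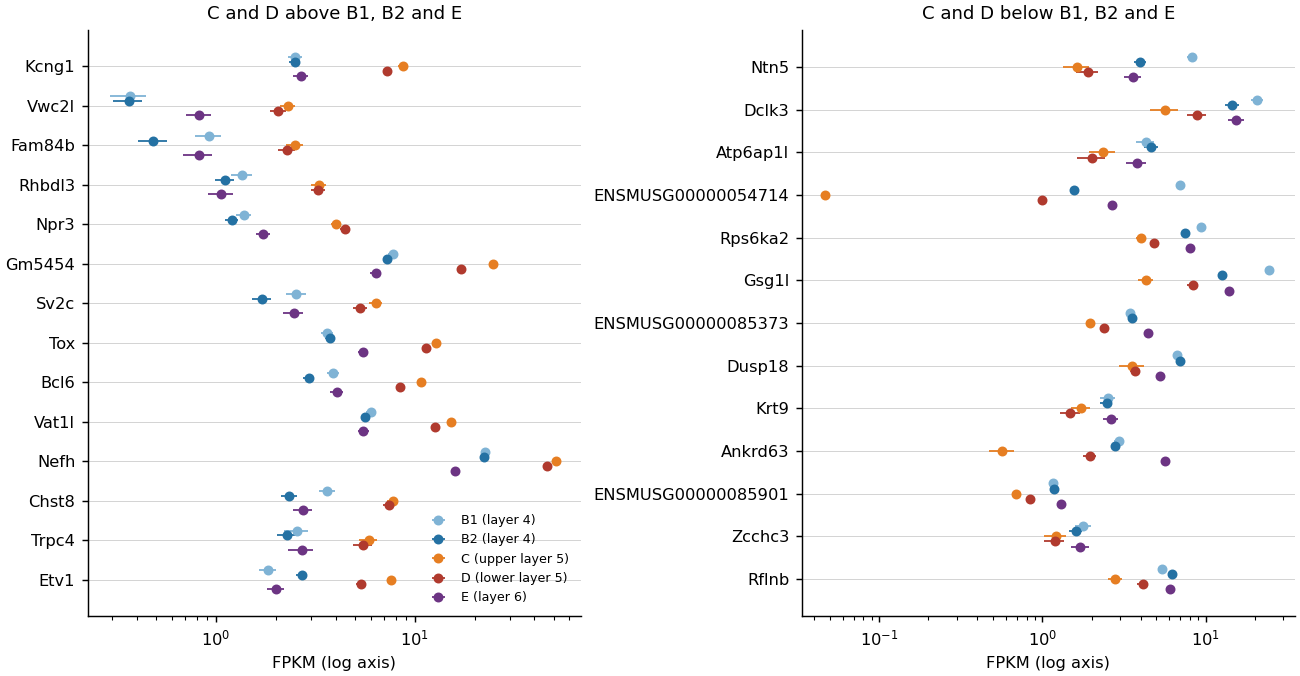
FPKM (log axis) with 95% intervals of the genes with the widest gaps above (left) and below (right) that are listed in all 5 libraries, in B1, B2, C, D and E. On the left C and D lie to the right of the other 3 libraries, with Kcng1 at 8.68 and 7.28 against at most 2.66, and on the right they lie to the left.

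Prkag1, a regulatory subunit of the AMP-activated kinase, was the 1 gene that limma called higher. It is listed with 21.6 FPKM in C and 22.9 in D and has no entry in the other 5 libraries, so no fold is given (limma adjusted p = 0.000413 with a missing entry as 0). The genes called lower were Paxbp1, at 3.86 FPKM in B1, 4.95 in B2 and 5.30 in E, and ENSMUSG00000080229, at 35.8, 41.2 and 22.3, neither of which has an entry in C or D (limma adjusted p = 0.00272 and 0.000413). ENSMUSG00000085373, a gene below whose span on chromosome 15 (98637463 to 98646508) overlaps that of Prkag1 (98643229 to 98656207), had 1.96 FPKM in C and 2.38 in D and between 3.42 and 4.43 in the flanking libraries.

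Genes of the axonal cytoskeleton were 5 of those above, from a list of 24 tested genes of neurofilaments and axonal transport (20.8%, against 3.82% of all genes), namely Nefl, Nefm, Nefh, Ina and Stmn3. None was below. The median log2 difference of the list was 0.23, against 0.11 over all genes tested. Differences were positive for 23 of 24 genes, against 6975 of all 10102. After scaling by the median of ratios they were positive for 18 of 24, against 5015 of all 10102. The layer 5 mean exceeded layer 4 in 21 of the 24 and layer 6 in 12.
Nefh (chromosome 11, 4838757 to 4848067), the heavy neurofilament subunit found in large axons, had 51.6 FPKM in C (95% interval 50.6 to 52.7) and 46.4 in D (45.5 to 47.4). It had 22.6 in B1, 22.3 in B2 and 16.0 in E. The log2 difference was 1.28 ± 0.22 (limma adjusted p = 0.678).
Nefm, the medium subunit, had 188 FPKM in C and 202 in D, with 132 in B1, 150 in B2 and 98.2 in E. Nefl, the light subunit, had 199.7 in C and 218 in D, with 146, 143 and 135 in the flanking libraries. Ina, alpha-internexin, had 104 in C and 116 in D and between 76.6 and 80.5 elsewhere. Nefh thus differed most between layer 5 and its neighbors, by 2.18-fold from layer 4 and 3.06-fold from layer 6, and it was higher in C, whereas Nefl, Nefm and Ina were higher in D. All 4 held on every scale, and Stmn3 did not. The motor protein Kif5c, with a log2 difference of -0.19, was the 1 gene of the list that was not positive.

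Of 49 tested potassium and HCN channel genes, 5 lay above (10.2%, against 3.82% of all genes) and 0 below (1.18% of all genes), and the median log2 difference was 0.08. Kcng1, Kcnn2, Kcnab1 and Kcnj10 were among them, and only Kcng1 and Kcnn2 held on every scale. Kcnn2, a calcium-activated SK channel, had 11.5 FPKM in C and 10.5 in D, with 6.90 in B1, 5.24 in B2 and 8.56 in E. After scaling by the median of ratios 2 genes of this list lay below (4.08%, against 1.93% of all genes) and the list median was -0.03. Without B1 10 lay above (20.4%, against 5.8% of all genes). Without B2 5 lay above and 5 below (10.2% each, against 5.04% and 3.7% of all genes).
Among 24 sodium and calcium channel genes, 4 lay above (16.7%, against 3.82% of all genes) and 1 below (4.17%, against 1.18%), around a median of -0.08. Scn4b (chromosome 9, 44946520 to 44962235), an auxiliary subunit linked to resurgent sodium current, had 46.2 FPKM in C and 57.5 in D, with 25.2 in B1, 19.3 in B2 and 27.8 in E. Its log2 difference was 1.11 ± 0.23 (limma adjusted p = 0.987). Scn1a had 41.5 in C and 38.3 in D, with 27.3, 27.7 and 21.8, and Cacna2d2, an auxiliary calcium channel subunit, had 9.44 and 8.52 with at most 6.22. Scn2b exceeded E by only 1.06-fold. Scn4b and Cacna2d2 held on every scale, and Scn1a and Scn2b did not.
Cacna1a (chromosome 8, 86912339 to 87164148), the pore of P/Q-type calcium channels, was the 1 channel gene below. It had 27.0 FPKM in C and 24.8 in D, against 33.6 in B1, 42.0 in B2 and 36.8 in E. The log2 difference was -0.53 ± 0.19 (limma adjusted p = 0.987), and it did not hold on every scale.

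Receptor genes were compared in 3 lists. Of 20 glutamate receptor genes, 1 lay above (5%, against 3.82% of all genes), and 2 lay below (10%, against 1.18% of all genes), namely Grik5 and Grin2b. Grin2b, an NMDA receptor subunit, had 22.8 FPKM in C and 21.6 in D, with 25.0 in B1, 33.6 in B2 and 25.5 in E. Grik5, a kainate receptor subunit, had 50.7 and 54.5, with 83.1, 58.1 and 65.4. The gap below was 0.909 of the lowest flanking library for Grin2b and 0.938 for Grik5, so both lay close to it, although they held on every scale.
Of 21 monoamine and acetylcholine receptor genes, Hrh3 lay above and Chrm1 below (4.76% each, against 3.82% and 1.18% of all genes). Hrh3, the histamine receptor that inhibits transmitter release, had 51.2 FPKM in C and 39.8 in D, with 36.0 in B1, 25.0 in B2 and 18.5 in E, and did not hold on every scale. Chrm1, the M1 muscarinic receptor, had 37.9 and 37.2, with 58.5, 42.3 and 42.2. Of 12 GABA-A receptor genes 1 lay above (8.33%, against 3.82% of all genes) and 0 below, around a median log2 difference of 0.13, and after scaling by the median of ratios 0 lay above and 1 below. In the axon guidance list, 2 of 35 genes lay above (5.71%, near the 3.82% of all genes), Sema3c and Unc5c, and Unc5c did not hold on every scale. Sema3c, a secreted semaphorin, had 5.42 FPKM in C and 5.82 in D, with 3.05 in B1, 3.17 in B2 and 4.47 in E.

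Among the lists with at least 8 tested genes, the citrate cycle had the largest share above on the deposited scale, though not in every setting. Of its 26 tested genes 14 lay above (53.8%, against 3.82% of all genes) and 0 below, and 18 lay above by FPKM alone (12.8% of all genes did). The median log2 difference was 0.40, against 0.11 over all genes tested, and 25 of 26 differences were positive, against 6975 of all 10102. The layer 5 mean exceeded layer 4 in 25 of the 26 and layer 6 in 19. On the other scales 12, 13 and 12 genes of the list lay above, by the median of ratios, the rescaling to nuclear genes and the removal of GC content, and the median was between 0.25 and 0.32. With intervals widened 2 times, 6 of 26 stayed above, against 1.81% of all genes.
The summed FPKM of the list was 1904 in C and 1878 in D, against 1202 in B1, 1376 in B2 and 1715 in E. On the deposited scale layer 5 was thus far over layer 4 and little over layer 6. The gap to the highest flanking library ran from a factor of 1.046 to 1.19 among the 14 genes. By the means, the median ratio was 1.44 to layer 4 and 1.09 to layer 6. Over all genes tested these medians were 1.14 and 0.957, so a lower ratio to layer 6 was not particular to this list.
The genes above stood at most steps of the cycle. Cs, citrate synthase (chromosome 10, 127774790 to 127799534), had 63.9 FPKM in C and 59.1 in D, with 41.6 in B1, 47.1 in B2 and 56.3 in E. The NAD-dependent isocitrate dehydrogenase was represented by Idh3a, with 103 in C, 108 in D and 98.2 in E, and Idh3b, with 116, 111 and 94.9. Ogdhl and Dlst belong to the oxoglutarate dehydrogenase step, and Dlst had 45.1 in C and 44.9 in D, with 33.7 in B1, 34.7 in B2 and 39.5 in E.
Sucla2 (chromosome 14, 73952605 to 73995449) encodes the ATP-forming subunit of succinyl-CoA ligase. It had 81.2 FPKM in C and 81.1 in D, with 37.7 in B1, 55.9 in B2 and 68.4 in E, and a log2 difference of 0.63 ± 0.28 (limma adjusted p = 0.987). Suclg1, the shared subunit of the same ligase, had 50.5 in both C and D and 45.8 in E. Sdha, Sdhb and Sdhd of succinate dehydrogenase, Fh1 (fumarase), Mdh1 (cytosolic malate dehydrogenase) and Pdha1 (pyruvate dehydrogenase) also lay above. Mdh1 had 337 FPKM in C, 330 in D, 187 in B1, 247 in B2 and 277 in E.
In 13 of the 14 genes C and D also lay above A and F, as they did in 316 of all 386 genes above (81.9%). The exception was Sdha, with 161 FPKM in F. Genes not apart included Idh1, the cytosolic isocitrate dehydrogenase, with 13.4 in C, 13.9 in D and 17.6 in E, and Idh2, with 9.15, 8.20 and 9.04. On every scale 11 of the 14 held, against 164 of all 386 genes above (42.5%), and Ogdhl and Sdhd were among those that did not. Scaling by the median of ratios multiplied E by 0.913, C by 0.960 and D by 0.946. The rescaling to nuclear genes used 0.938, 0.978 and 0.963. Both widened any gap to E, so holding against E was fixed in advance on these scales. Leaving out B1 gave 15 genes above, leaving out B2 14, leaving out C or D 15, and leaving out E 23. With B1, B2, C, D and E left out in turn, 5.8%, 5.04%, 5.99%, 6.63% and 26% of all genes lay above.

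**Figure D4:**
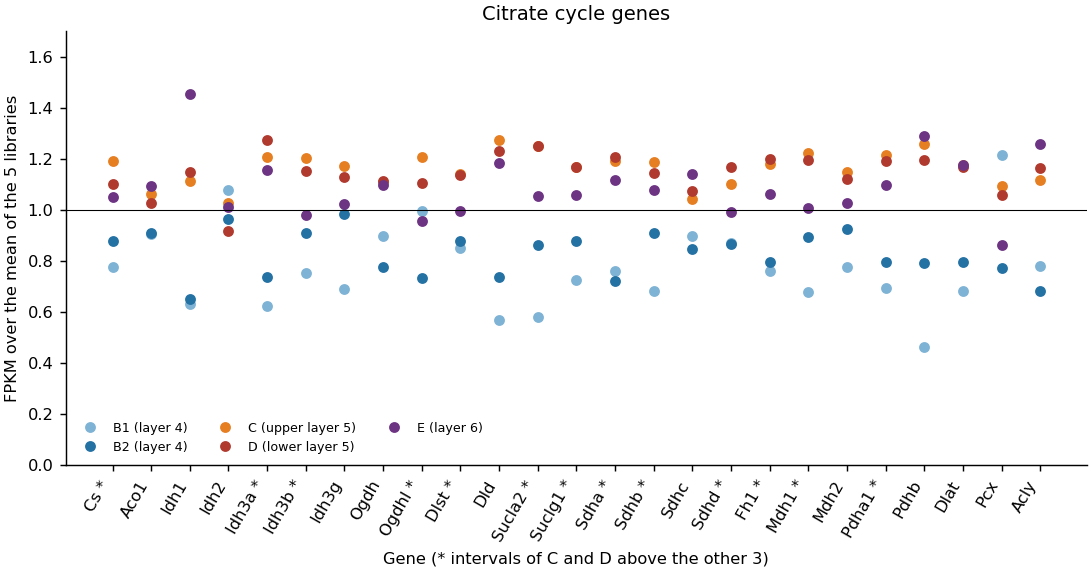
FPKM of 25 of the tested citrate cycle genes in B1, B2, C, D and E, each divided by its mean over the 5 libraries, with an asterisk at the 13 genes shown whose intervals in C and D lie above the other 3. C and D lie over 1 in all of these 13, E lies next under them in most, and B1 and B2 are lowest in most.

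The nuclear genes of the respiratory chain, 68 tested, had 13 above (19.1%, against 3.82% of all genes) and 0 below. Sdha, Sdhb and Sdhd are among the 13 and were also counted above in the citrate cycle list, so these lists are not separate evidence. The median log2 difference was 0.34 and all 68 differences were positive, as were 6975 of all 10102. The layer 5 mean exceeded layer 4 in 65 of the 68 and layer 6 in 56. On the other scales 9 or 10 lay above and 63 or 64 were positive, and with intervals widened 2 times 3 lay above (4.41%, against 1.81% of all genes). The share depended on the layer 4 library B2, with 29 of 68 above without B2 (42.6%, against 5.04% of all genes). Without B1 14 lay above (20.6%, against 5.8% of all genes). Among the 13, Atp5a1, the catalytic-core alpha subunit of ATP synthase, had 359 FPKM in C and 378 in D, with 271 in B1, 259 in B2 and 310 in E. Uqcrfs1, the Rieske iron-sulfur protein, had 60.4 and 64.9, with 45.6, 44.3 and 56.3, and Cox5a of cytochrome oxidase had 103 and 94.4, with 33.0, 81.1 and 85.4. In Cox5a B1 and B2 differed from each other more than B2 did from layer 5. Of the 13, 5 held on every scale, a share near the 42.5% of all 386 genes above.
Of 20 genes of the mitochondrial genome 0 lay above or below, with a median log2 difference of -0.02, and this turned on the layer 4 library kept. Without B2, 9 of 20 lay above (45%, against 5.04% of all genes) and the median was 0.46. Without B1 0 lay above and the median was -0.35. In glycolysis 2 of 16 genes lay above (12.5%, against 3.82% of all genes), Pfkm and Pkm, both on every scale. Pkm had 159 FPKM in C and 162 in D, with 122, 122 and 133. Cholesterol synthesis, with 18 tested genes, had a median of 0.35 but 0 above, and 17 had a lower mean in layer 5 than in E. The mean was higher in layer 5 than in E for 1 of the 18, against 3948 of all 10102 genes. The cytosolic ribosomal proteins (34 tested) and the Parkinson disease genes (10 tested) had 0 apart and medians of 0.15 and 0.18. The ribosomal median was -0.11 without B1 and 0.33 without B2.

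**Figure D5:**
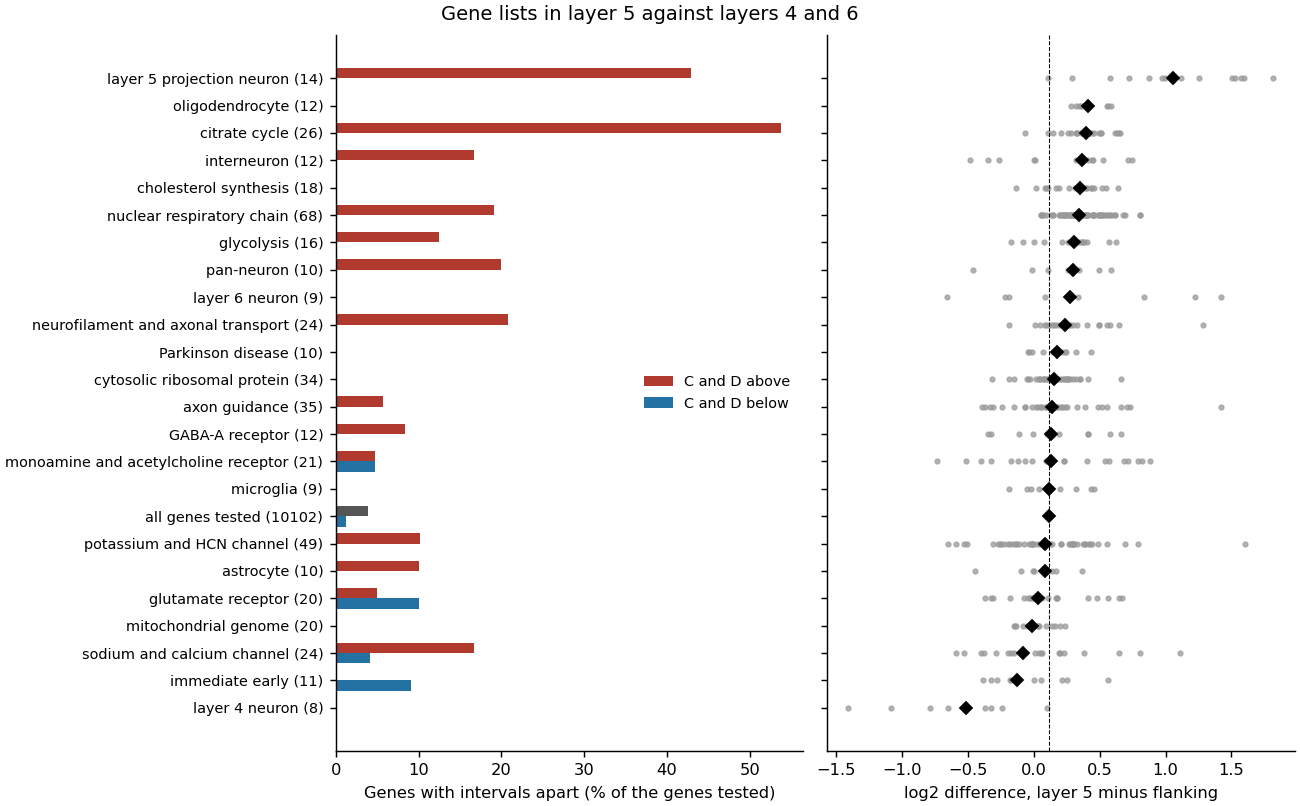
Left, percent of tested genes of each list (number in parentheses) whose intervals in C and D lie above (red, gray for all genes) or below (blue) those of B1, B2 and E; right, log2 difference of each gene (gray points), the list median (diamonds) and the median over all genes tested (dashed line). Lists with at least 8 tested genes are shown, with citrate cycle genes at 53.8%, layer 5 projection neuron genes at 42.9% and all genes at 3.82%.

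A further 15 genes were picked out after their values were seen, for their abundance or their size of difference. Atp1b1, the beta subunit of the sodium pump, had 681 FPKM in C and 762 in D, against 457 in B1, 449 in B2 and 601 in E. Cplx1, a complexin that clamps and triggers vesicle fusion, had 546 in C and 508 in D, against 359 in B1, 282 in B2 and 275 in E, or 1.64-fold over layer 4 and 1.91-fold over layer 6.
Rab3c and Rab3a, GTPases of synaptic vesicles, both lay above. Rab3c had 75.7 FPKM in C and 57.7 in D, with 29.3 in B1, 34.2 in B2 and 28.4 in E, whereas Rab3a had a layer 5 mean of 406 against a flanking mean of 336 and did not hold on every scale. Ppargc1a, a coactivator of genes of mitochondrial metabolism, had 12.9 in C and 10.3 in D, with 5.57 in B1, 7.13 in B2 and 7.02 in E. Esrrg, an estrogen-related receptor that works with it, had 12.97 and 13.9, with 5.18, 5.51 and 8.68. Slc25a4, the ADP/ATP carrier of mitochondria, had 301 in C and 329 in D, with 261 in B1, 217 in B2 and 263 in E. Egln3, an oxygen-sensing hydroxylase, and Bcat1, which transaminates branched-chain amino acids, had layer 5 means 4.45-fold and 2.09-fold over layer 4 and 1.66-fold and 1.60-fold over layer 6. Thy1, a surface glycoprotein of projection neurons, and Ywhag, a 14-3-3 protein, had layer 5 means 1.141-fold and 1.055-fold over layer 6. Of these 11 genes above, 7 held on every scale, and Rab3a, Slc25a4, Thy1 and Ywhag did not.

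The genes below included no marker of the layer lists. Dclk3 (chromosome 9, 111341585 to 111392112), a doublecortin-like kinase, had 5.68 FPKM in C (95% interval 4.58 to 6.77) and 8.89 in D (7.70 to 10.1), against 20.7 in B1, 14.6 in B2 and 15.5 in E. The log2 difference was -1.22 ± 0.27 (limma adjusted p = 0.987). Ntn5, a netrin family member, had 1.64 in C and 1.90 in D, against 8.29 in B1, 3.96 in B2 and 3.57 in E, so that B1 stood apart from the other flanking libraries.
Gsg1l, an auxiliary subunit of AMPA receptors, had 4.30 FPKM in C and 8.33 in D, with 24.6 in B1, 12.7 in B2 and 13.9 in E. Ankrd63 was lowest in C, with 0.567 there, 1.95 in D and between 2.78 and 5.61 in the flanking libraries. Rps6ka2, a ribosomal S6 kinase, had 4.01 and 4.85, with 9.33, 7.46 and 8.06. These 5 genes held on every scale, and they too had been ranked by the width of the gap.
Of the others, Dusp18 (a phosphatase), Krt9 (a keratin), Rflnb, Zcchc3 and Atp6ap1l had layer 5 means of 0.491 to 0.707 of layer 4 and 0.568 to 0.700 of layer 6. ENSMUSG00000054714, which has no name in the annotation, had 0.0463 FPKM in C and 0.995 in D and ranged from 1.55 in B2 to 6.99 in B1, so both C and D and the flanking libraries were spread widely. ENSMUSG00000085901 had 0.693 in C and 0.837 in D, with 1.17, 1.19 and 1.30. Its intervals were narrow for its FPKM, 0.690 to 0.696 in C, where Ankrd63 at 0.567 had 0.468 to 0.666. Those of ENSMUSG00000054714, ENSMUSG00000085373, ENSMUSG00000080229, Paxbp1 and Prkag1 were narrow too. For these genes the count by intervals adds little to FPKM alone. Among genes picked after their values were seen, Inhba, a subunit of activin, had 2.13 in C and 3.88 in D, with 8.05 in B1, 7.16 in B2 and 4.80 in E, and did not hold on every scale. Cpne5, a copine, had 26.6 and 34.3, with 46.4, 44.1 and 53.6, and Auts2 and Smarca2, chromatin-associated proteins, had layer 5 means of 0.600 and 0.709 of layer 4.
Egr1, an immediate early transcription factor, was the 1 of 11 such genes below (9.09%, against 1.18% of all genes). Egr1 had 51.6 FPKM in C and 54.3 in D, against 68.3 in B1, 58.5 in B2 and 72.6 in E. It held on every scale, and the median log2 difference of the 11 genes was -0.13, or 0.13 without B1.

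Upper and lower layer 5 were compared within these genes. C was higher than D in 227 of the 386 genes above and in 41 of the 119 genes below. Intervals of C and D did not overlap in 161 of the genes above, with C higher in 111 and D higher in 50. They did not overlap in 60 of the genes below, with C higher in 13 and D higher in 47. These counts were not made over all genes tested, so they do not show whether genes above or below differ from the rest. Etv1 and Parm1 were 1.42-fold and 1.34-fold higher in C, and Lypd1 was 0.640 and Scn4b 0.804 in C relative to D. Gsg1l and Dclk3, below in both, were 0.516 and 0.638 in C relative to D.

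Samples A (layers 1 to 3) and F (layer 6b) were not used to decide whether a gene lay above or below, although their intervals entered the filter on tested genes. C and D lay above both A and F in 316 of the 386 genes above (81.9%), as they did in 2386 of all 10102 genes tested (23.6%). In 48 genes C and D exceeded A only, in 16 F only and in 6 neither. For the genes below, C and D lay under both A and F in 69 of 119 (58%), against 14.6% of all genes. Neighboring layers are alike in expression, so A and F are not independent of B and E.
Genes above and below differed in base composition. The median GC content of the longest transcript was 49.2% in the genes above, 54.8% in the genes below and 49.9% in all genes tested. The fit without a trend in GC content left 199 of the 386 genes above and 99 of the 119 below. It also brought the median log2 difference over all genes to -0.0041. Scaling by the median of ratios, which does not use GC content, left 210 and 98. The loss of genes above is therefore not a measure of GC content alone. The genes above were somewhat more abundant, with a median mean of 17.1 FPKM against 14.2 in the genes below. Both were over the 10.6 of all genes tested. Protein-coding genes were 364 of 386 and 109 of 119, near the 9167 of all 10102.

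Other cell types were checked with their markers. All 12 oligodendrocyte markers were ordered from B through C and D to E, and their summed FPKM was 875 and 890.3 in the layer 4 libraries, 1716 in C and 2298 in D, and 4268 in E, so none lay above or below. Of 12 interneuron markers 2 lay above (16.7%, against 3.82% of all genes). Differences were positive for 9 of the 12, against 6975 of all 10102. After scaling by the median of ratios 7 were positive, against 5015 of all genes, and 1 lay above. The layer 5 mean exceeded layer 4 in 8 of the 12 and layer 6 in 9, so the list was mixed. Gad1, the enzyme of GABA synthesis, had 67.7 FPKM in C and 67.2 in D, with 45.0, 45.3 and 50.7, and held on every scale, while Reln, a glycoprotein of some interneurons, did not. Gja1 was the only astrocyte marker apart, at 1.08-fold over layer 6, and its log2 difference of 0.17 turned to -0.04 when GC content was removed. None of the 9 microglia, 7 endothelium, 4 blood and 5 striatum markers was apart by intervals. Of 10 pan-neuronal markers Tubb3 and Stmn2 lay above (20%, against 3.82% of all genes). The summed FPKM of the 10 was 4957 in C and 4967 in D, against 4050.5 in B1, 3759 in B2 and 4899 in E. In bulk tissue more cells of a type and more RNA per cell cannot be told apart.

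Isoforms were compared in the same way. Of 12380 transcripts tested, 471 lay above (3.8%) and 114 below (0.921%), and 103 and 26 of these belonged to genes that were not apart as a whole. Among 1568 genes with at least 2 transcripts tested, 1 gene (0.0638%) had a transcript above and another below. This was Gm21974, whose transcript ENSMUST00000119922 has no entry in C or D, so the call rests on a missing line.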

How the data were processed

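Polyadenylated RNA from 7 hand-cut segments of S1 was sequenced, and 5 of them enter here. The authors mapped 50 nt paired reads with TopHat 1.0.13 to mm9 and computed FPKM per gene and transcript with Cufflinks 0.8.3 on Ensembl release 57, and deposited each FPKM with its 95% bounds. The coverage column the authors deposited for transcripts is a read depth, used only to estimate fragments per library. Intervals and estimated depth cover counting error and assignment of reads, not the spread between mice. Some genes had intervals so narrow for their FPKM that these may not hold the counting error.

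Groups came from the labels. A gene without a line in a library was set to 0. Tested genes had a widest interval of at most 50% of the mean FPKM over the 7 libraries and a mean of at least 1 FPKM over the 5. Log2(FPKM + 0.1) was fitted with limma 3.58.1 (R 4.3.3, trended variance) across all tested genes, with Benjamini-Hochberg adjustment, and log2 differences are on that scale, which understates changes of low genes. P-values measure the spread between these pooled libraries. In the flanking group this spread includes the layer difference of E from B1 and B2, and in the other group the depth difference of C from D. A high adjusted p is therefore not a measure of noise between replicate libraries alone. The fit was tested on simulated data. It called 0 of 50 genes changed 1.5-fold and 4 of 50 changed 2-fold, so it mostly missed differences of that size. It called 32 of 50 changed 4-fold, 42 of 50 changed 8-fold and 6 of 9902 unchanged genes. In the simulation the spreads were shuffled among genes and 200 genes were changed, so these rates need not hold for the real genes. Symbols came from GENCODE M21 by identifier, and promoters from RefSeq on another build than the files. Overlap counts are descriptions.

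Genes named were the 15 with the widest gaps in each direction, list genes that were apart, defining markers, and 15 chosen after their values were seen. The members and the 27 lists were chosen with earlier results of these data known. Of 17 other settings, and 1 chosen after seeing the data, those that apply to a result were used to recompute it. The 12 samples of dorsal and lateral cortex were not analysed here. The de novo gene models that the authors also deposited were not used here. A few genes that the rule names are not reported here.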

Additional observations from a re-analysis of the deposited data

How the results depend on the processing

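No paired analysis was made, because RNA of the mice was pooled in each library and single mice cannot be matched between the groups. Only the layer 4 libraries carry replicate numbers. The limma fit treated the 5 libraries as independent although they share animals. Against 386 genes above and 119 below, scaling by the median of ratios gave 257 and 195, intervals widened 2 times gave 183 and 56, and FPKM alone gave 1295 and 426. The genes below were 193 without a minimum FPKM, 209 without a filter and 213 with GC content removed. Leaving out 1 library gave 509 to 2624 genes above and 210 to 467 below, with the highest of both without E, which leaves layer 4 as the only neighbor, and without B2 the share above was 57.6%. Against 1 gene called higher by limma, there were 3 without a filter, 2 with 3 groups, 0 over genes listed in all 5 libraries (an alternative added after seeing the data) and 1 to 3 with 1 library left out (3 without D, 2 without E). Against 2 called lower, there were 1 with GC content removed, 0 over genes listed in all 5 libraries and 2 to 5 with 1 library left out (5 without E). Where leaving out a library left 1 in an arm, limma assumed that it varied like the rest. Genes with transcripts apart in both directions were 9 by FPKM alone and 5 to 19 with 1 library left out, against 1. With GC content removed the log2 difference turned to -0.04 (-0.0390) for Gja1. The causes of these changes were not tested, beyond fewer libraries leaving fewer conditions to meet. Of the single-gene and list values under all alternatives, 1639 stayed within the limits set, 69 moved and 1 reversed. These are not counts of changes of sign. List medians within the limits in every setting ran from -0.35 to 0.46 for the mitochondrial genome and from -0.30 to 0.13 for immediate early genes. The medians of layer 4 neuron markers (-1.41 to 0.24) and layer 6 neuron markers (-0.40 to 1.29) also changed sign.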
